A study of Mus musculus with 7 samples.

Results

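Transcript levels of 32 genes of glycolysis, lactate transport and the hypoxia response were examined in mouse granulosa cells, which line the ovarian follicle and enclose its oocyte. The 32 were taken by gene symbol from a deposited table of 50095 genes, and each symbol matched 1 row. By role they comprised 2 glucose transporters, 10 genes of upper glycolysis, 6 of lower glycolysis, 5 that handle pyruvate and lactate, and 9 targets of hypoxia-inducible factor. RNA sequencing was done on 3 libraries labelled KO, of genotype Ezh2flox/flox; Cyp19-Cre, and 4 labelled WT, of genotype Ezh2flox/+; Cyp19-Cre. The product of Ezh2 methylates histone H3 as the catalytic part of a Polycomb complex. The Cre recombinase was driven by the promoter of aromatase, which granulosa cells use, so every mouse carried Cre and every WT mouse 1 floxed allele. All mice were females, 3 weeks old. They received 5 IU of PMSG, a gonadotropin that drives follicle growth, and 48 h afterwards 5 IU of hCG, which triggers ovulation. The labels give neither the time from hCG to collection nor the number of mice behind a library, so the spread behind each p-value is that of these libraries and may be technical. The library WT4 bore the treatment label of the KO group but the title and genotype of WT, and was kept in WT.

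Glycolysis splits glucose into pyruvate. The oocyte itself uses glucose poorly, and the granulosa cells around it carry out glycolysis and hand over pyruvate and lactate. Lactate dehydrogenase interconverts those acids, and monocarboxylate transporters move them across the cell membrane. Where oxygen is scarce, hypoxia-inducible factor 1 escapes the prolyl hydroxylases that mark it for destruction and raises transcription of glucose transporters, glycolytic enzymes and other targets. The preovulatory follicle has no vessels inside its granulosa layer, and luteinizing hormone also raises the factor in granulosa cells.

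Ndrg1, a stress- and hypoxia-induced gene, was the 1 gene of the set that rose in the KO-labelled libraries, 2.54-fold in mean FPKM. FPKM is a fragment count divided by transcript length and sequencing depth. Lower in the KO-labelled libraries were P4ha2, which encodes a collagen prolyl hydroxylase, the phosphofructokinase genes Pfkl and Pfkm, the glycolytic enzyme genes Tpi1 and Eno1, and Slc16a1, the monocarboxylate transporter MCT1. The ratio of mean FPKM for these 6 genes lay between 0.556 and 0.768. Pfkl, Pfkm, Eno1 and Slc16a1 lost their calls when low genes were left unfiltered. That alternative took more genes into both the fit and the adjustment, and the part of each in the loss was not tested. The remaining 24 tested genes were not called, among them Aldoa, Gapdh, Ldha, Ldhb and Hk2, and 1 gene, Slc2a3, was too low to be tested. A gene was called at a limma adjusted p under 0.05 in a fit of log2(FPKM + 1) over the 13850 genes whose mean reached 1 FPKM. Of all genes tested, 7.91% were called higher and 16.7% lower. Among the 31 tested genes of the set, 1 (3.23%) was higher and 6 (19.4%) were lower, shares near that background. An unadjusted p under 0.05 was reached by 10 of the 31, against 40.0% of all genes. Higher genes made up 32.1% of all calls, but 48.8% with median-of-ratios scaling and 17.7% when the sum of FPKM was made equal. The median log2 difference was -0.08 for the set and -0.08 for all genes tested. Every KO-labelled library lay below every WT library for 12 of the 31, against 24.8% of all genes, and above for 1, against 11.5%.

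**Figure D1:**
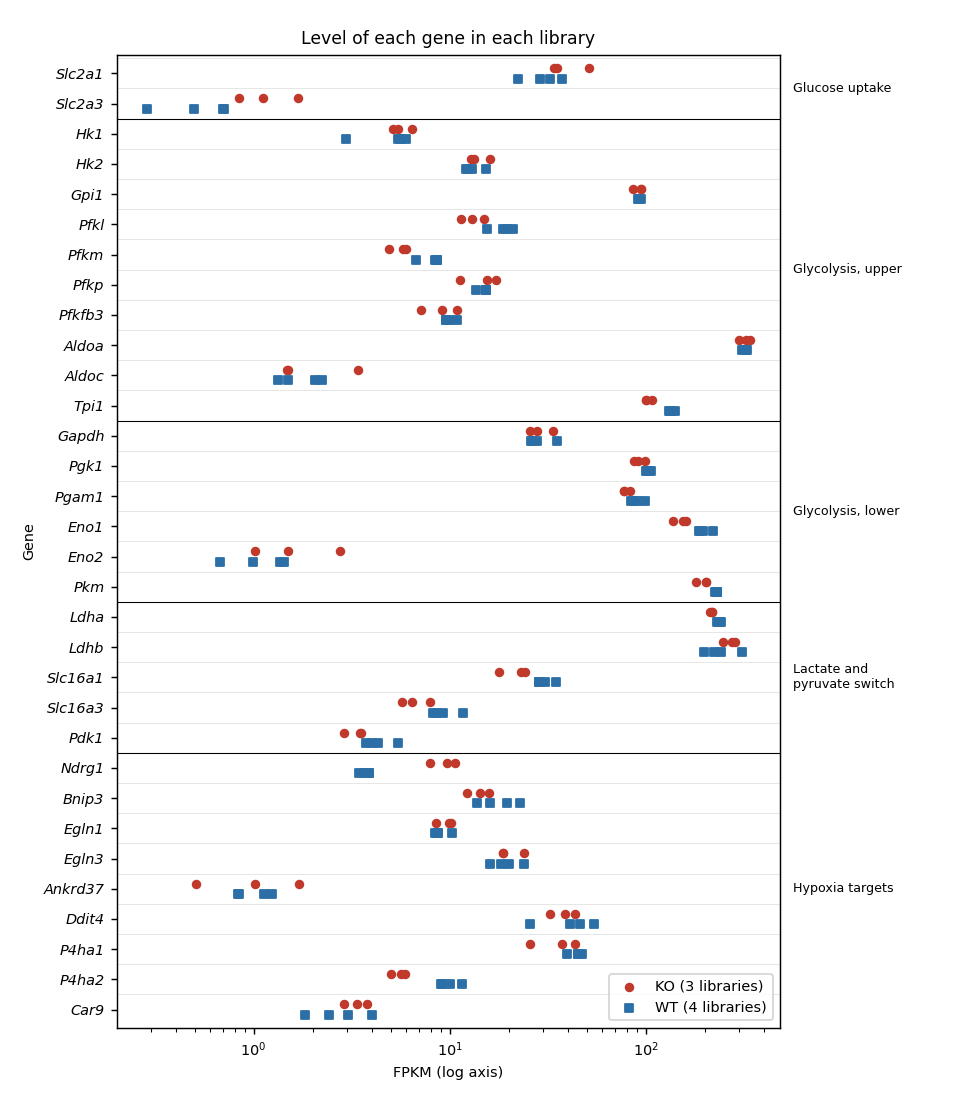
Level of each of the 32 genes in FPKM on a log axis, with 1 point for each of the 3 KO-labelled libraries (circles, upper) and each of the 4 WT libraries (squares, lower), grouped by role. Levels ran from under 1 FPKM for Slc2a3 in WT libraries to over 300 FPKM for Aldoa in some libraries of each group, and Ndrg1 and P4ha2 show a gap between the groups.

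The libraries themselves differed in ways that touch these results. Summed over its genes a library held 400522 to 450102 FPKM in KO-labelled and 372085 to 390185 FPKM in WT libraries. The table holds no counts, and the low values did not recover them, so the depth behind each value is unknown. Ezh2, the targeted gene, had 20.03, 17.8 and 26.1 FPKM in KO1 to KO3, against 20.5, 23.4, 25.2 and 25.3 FPKM in WT1 to WT4. The groups overlapped (limma log2 difference -0.15, 95% interval -0.46 to 0.16, adjusted p = 0.432) and KO3 held the highest value, so every direction given here is that of the labels alone. A whole-gene value also counts exons outside a deleted part, so it is a weak check. All 12 granulosa markers averaged 5 FPKM or more in WT, the lineage factor gene Foxl2 at 10.2 to 14.8 FPKM in KO-labelled and 13.3 to 20.5 FPKM in WT libraries. Their summed FPKM was 2850 to 4050 in KO-labelled and 4340 to 5820 in WT libraries, with 6 of 12 lower and 0 higher.

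Markers of other cell types moved with the labels. Macrophage markers were higher in 9 of 10 tested genes, with a summed FPKM of 52.6 to 114 in KO-labelled and 16.9 to 28.5 in WT libraries. Endothelial markers were higher in 9 of 9, with sums of 45.9 to 66.2 in KO-labelled and 11.7 to 25.1 in WT libraries. Surface epithelium markers were higher in 8 of 9, with sums of 64.1 to 141 in KO-labelled and 30.3 to 39.3 in WT libraries. Smooth muscle and pericyte markers were higher in 5 of 8, with sums of 135 to 360.5 in KO-labelled and 61.2 to 109 in WT libraries, and stroma and theca markers in 4 of 10, with 176 to 321 in KO-labelled and 67.9 to 193 in WT libraries. Erythroid markers were higher in 5 of 6, with sums of 3030 to 4780 in KO-labelled and 1060 to 2680 in WT libraries. Of the oocyte markers 2 of 10 were higher, and their sums of 627 to 745 in KO-labelled and 415 to 703 in WT libraries overlapped. In none of these 7 lists was a tested marker called lower, although for the erythroid marker Slc25a37 every KO-labelled library was below every WT library (log2 difference -0.19, limma adjusted p = 0.143), and no marker was at 0 in all 7 libraries. Their part in the differences below was not tested, and in such bulk samples fewer cells of a type and less RNA per cell cannot be told apart.

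The promoters of the set were read for the letters at the core of the site bound by hypoxia-inducible factor, ACGTG or GCGTG on either strand. RefSeq (GRCm38.p6) gave 43 windows of 250 bases before a transcript start for 30 of the 32 genes. ACGTG was present in 22 of 43 windows (51.2%), against 16.6% of all 32851 windows in the same table. GCGTG was present in 24 (55.8%), against 28.2% of all. The set's windows were rich in G and C, with a median of 62.8% against 52.4% over all windows. Among windows with at least 60% G or C, ACGTG was in 18 of 25 (72.0%) against 23.0%, and GCGTG in 16 of 25 (64.0%) against 53.9%. These shares describe letters only, and windows of the same gene can overlap. The set includes genes chosen as targets of this factor, so the shares are no independent test of that role. The sequences that follow, 5′ to 3′ and ending at the base before the start, are 1 window each of 4 genes lower in KO-labelled libraries and of Ldha, which was not called. Capitals mark ACGTG or GCGTG, or their reverse complements CACGT and CACGC, and a CACGTG is a match on both strands.
P4ha2, chr11:54100674-54100923, plus strand: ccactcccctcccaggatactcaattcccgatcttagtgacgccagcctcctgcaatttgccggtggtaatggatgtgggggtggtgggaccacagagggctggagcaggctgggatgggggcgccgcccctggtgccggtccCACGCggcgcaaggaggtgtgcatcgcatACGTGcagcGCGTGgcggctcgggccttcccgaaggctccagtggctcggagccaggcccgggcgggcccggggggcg
Slc16a1, chr3:104638414-104638663, plus strand: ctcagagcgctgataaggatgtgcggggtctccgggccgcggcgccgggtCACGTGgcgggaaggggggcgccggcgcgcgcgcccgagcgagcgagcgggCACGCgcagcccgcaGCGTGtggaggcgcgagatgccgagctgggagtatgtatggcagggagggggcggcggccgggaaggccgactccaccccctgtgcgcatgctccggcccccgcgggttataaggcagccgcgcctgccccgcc
Eno1, chr4:150236947-150237196, plus strand: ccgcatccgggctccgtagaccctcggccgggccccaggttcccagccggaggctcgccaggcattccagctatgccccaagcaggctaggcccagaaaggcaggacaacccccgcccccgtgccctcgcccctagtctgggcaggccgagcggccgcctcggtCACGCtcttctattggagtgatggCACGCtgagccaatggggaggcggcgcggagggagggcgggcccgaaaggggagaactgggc
Tpi1, chr6:124814159-124814408, minus strand: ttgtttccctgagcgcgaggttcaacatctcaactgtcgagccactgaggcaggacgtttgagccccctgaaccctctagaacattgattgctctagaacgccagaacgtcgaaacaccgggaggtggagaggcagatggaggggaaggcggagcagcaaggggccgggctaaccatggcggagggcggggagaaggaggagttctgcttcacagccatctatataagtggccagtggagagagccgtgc
Ldha, chr7:46845554-46845803, plus strand: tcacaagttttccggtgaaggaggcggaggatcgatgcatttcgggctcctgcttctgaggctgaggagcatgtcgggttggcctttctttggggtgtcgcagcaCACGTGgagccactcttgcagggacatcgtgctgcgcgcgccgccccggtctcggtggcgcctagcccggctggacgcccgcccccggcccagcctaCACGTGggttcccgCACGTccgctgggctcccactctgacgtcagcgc
The window of P4ha2 held 1 ACGTG and 2 GCGTG, that of Slc16a1 held 2 of each, and that of Eno1 held 2 GCGTG. The Tpi1 window held neither, and the Ldha window shown held ACGTG 5 times. The start of that Ldha window was not matched in the GENCODE transcripts. A second Ldha window, whose start was matched, held 0 ACGTG and 1 GCGTG. Some genes that were lower and a gene that was not called carried these letters. Over the 11 windows of the 6 genes called lower, ACGTG was in 4 (36.4%) and GCGTG in 8 (72.7%). For the whole set these shares were 51.2% and 55.8%. RefSeq gave no window in this table for Ndrg1.

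Glucose enters through the transporters GLUT1 (Slc2a1) and GLUT3 (Slc2a3). Slc2a1 had 33.97, 51.4 and 35.1 FPKM in KO1 to KO3, against 32.4, 22.3, 28.8 and 37.6 FPKM in WT1 to WT4. The groups overlapped, and KO2 was the highest of all libraries (limma adjusted p = 0.158, with a log2 difference of 0.40 and a 95% interval of -0.04 to 0.83). Slc2a3, the high-affinity transporter, stood at 1.12, 1.68 and 0.840 FPKM in KO1 to KO3, against 0.694, 0.706, 0.496 and 0.286 FPKM in WT1 to WT4. Each KO-labelled library was above each WT library, but the gene fell under the minimum mean of 1 FPKM and was not tested.

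Hexokinase traps glucose in the cell as glucose 6-phosphate, and the libraries held transcripts of both common forms. Hk2, the inducible form, averaged 14.1 ± 1.73 FPKM in KO-labelled and 13.2 ± 1.44 FPKM in WT libraries (SD, n = 3 and n = 4). Hk1, the housekeeping form, averaged 5.69 ± 0.666 FPKM in KO-labelled and 5.01 ± 1.39 FPKM in WT libraries. Neither was called (limma adjusted p = 0.597 for Hk2 and 0.5 for Hk1), and each WT SD covered the gap between the means. For Hk1 that SD owed much to WT4, at 2.96 FPKM against 5.43, 6.02 and 5.62 FPKM in WT1 to WT3. Without WT4 the log2 difference of Hk1 was -0.003, against 0.186 with all libraries. Gpi1, which converts glucose 6-phosphate to fructose 6-phosphate, hardly differed in mean, at 92.1 ± 4.90 FPKM in KO-labelled and 92.7 ± 1.43 FPKM in WT libraries (log2 difference -0.01, 95% interval -0.20 to 0.18).

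Phosphofructokinase catalyses the committed step of glycolysis and is built from liver (Pfkl), muscle (Pfkm) and platelet (Pfkp) subunits. Pfkl (chromosome 10, 77986947 to 78010083, minus strand; all coordinates GRCm38) had 13.0, 11.4 and 15.03 FPKM in KO1 to KO3, against 19.6, 21.0, 18.7 and 15.5 FPKM in WT1 to WT4. The groups did not overlap, although KO3 and WT4 nearly met (log2 difference -0.48, SE 0.13, limma adjusted p = 0.0285). Pfkm (chromosome 15, 98092589 to 98132451, plus strand) had 5.75, 4.91 and 5.99 FPKM in KO1 to KO3, against 8.42, 8.66, 8.60 and 6.77 FPKM in WT1 to WT4. All KO-labelled values were below all WT values, of which WT4 was the lowest (log2 difference -0.47, SE 0.12, limma adjusted p = 0.0207). Pfkl was not called when WT1, WT2, WT3, KO1 or KO2 was left out, nor Pfkm without WT2, WT3, KO1 or KO2, while the log2 difference stayed between -0.62 and -0.39 for Pfkl and between -0.61 and -0.40 for Pfkm over all alternatives. Pfkp was not called and spread more among KO-labelled libraries, at 14.7 ± 3.00 FPKM in KO-labelled and 14.9 ± 0.853 FPKM in WT libraries (limma adjusted p = 0.855). Senp1 overlaps Pfkm and Pitrm1 overlaps Pfkp on the opposite strand, and no source used here says that fragments were assigned by strand. Pfkfb3, whose product makes the fructose 2,6-bisphosphate that activates phosphofructokinase, averaged 9.06 ± 1.87 FPKM in KO-labelled and 9.97 ± 0.614 FPKM in WT libraries and was not called.

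Aldolase splits the 6-carbon sugar, and Aldoa had the highest mean of the set when each gene was taken by its own row, followed by Ldhb. Aldoa had 340, 298 and 326 FPKM in KO1 to KO3, against 328, 324, 324 and 311 FPKM in WT1 to WT4. The WT values lay within the range of the KO-labelled ones (log2 difference 0.00, 95% interval -0.22 to 0.21, limma adjusted p = 0.982). Aldoc, the brain form, stayed low, at 2.13 ± 1.11 FPKM in KO-labelled and 1.78 ± 0.436 FPKM in WT libraries. Tpi1 (chromosome 6, 124810586 to 124814296, minus strand), which interconverts the 3-carbon products, had 100.5, 100.9 and 108 FPKM in KO1 to KO3, against 135, 140.5, 131 and 133 FPKM in WT1 to WT4. The gap between the groups was wider than the spread within either (log2 difference -0.38, SE 0.08, limma adjusted p = 0.0144). Tpi1 was called under all 16 alternatives to the fit. Spsb2, at 4.03 FPKM in KO-labelled and 4.17 FPKM in WT libraries, overlaps it on the opposite strand.

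In lower glycolysis 1 of 6 genes was lower, against 16.7% of all genes tested, and 0 were higher. In 4 of the 6 every KO-labelled library was below every WT library, against 24.8% of all genes, and nothing particular to these few genes is read from the count. Eno1 (chromosome 4, 150236721 to 150248879, plus strand), the enolase of most tissues, had 138, 156 and 161 FPKM in KO1 to KO3, against 186, 220, 195 and 189 FPKM in WT1 to WT4. The groups did not overlap, and WT2 stood highest (log2 difference -0.38, SE 0.10, limma adjusted p = 0.0296). The call was lost without WT2, WT3, WT4, KO1 or KO3, and also with median-of-ratios or upper-quartile scaling, while the log2 difference stayed between -0.53 and -0.29. Pkm, pyruvate kinase and the gene of this group with the highest mean in its own row, had 180.5, 204 and 203 FPKM in KO1 to KO3, against 231, 230.4, 226 and 230.3 FPKM in WT1 to WT4. The WT libraries differed by a few FPKM only and all lay above the KO-labelled ones, but the gene missed the threshold (log2 difference -0.23, SE 0.09, limma adjusted p = 0.0929). Pgk1 and Pgam1, the kinase and mutase of phosphoglycerate, were also below WT in every KO-labelled library without being called. Pgk1 averaged 92.7 ± 6.55 FPKM in KO-labelled and 103 ± 2.7 FPKM in WT libraries (limma adjusted p = 0.214). Pgam1 averaged 79.3 ± 3.15 FPKM in KO-labelled and 90.4 ± 6.34 FPKM in WT libraries (limma adjusted p = 0.159). Eno2, the neuronal enolase, was barely above the minimum level for the test, with 1.76 ± 0.909 FPKM in KO-labelled and 1.12 ± 0.353 FPKM in WT libraries.

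**Figure D2:**
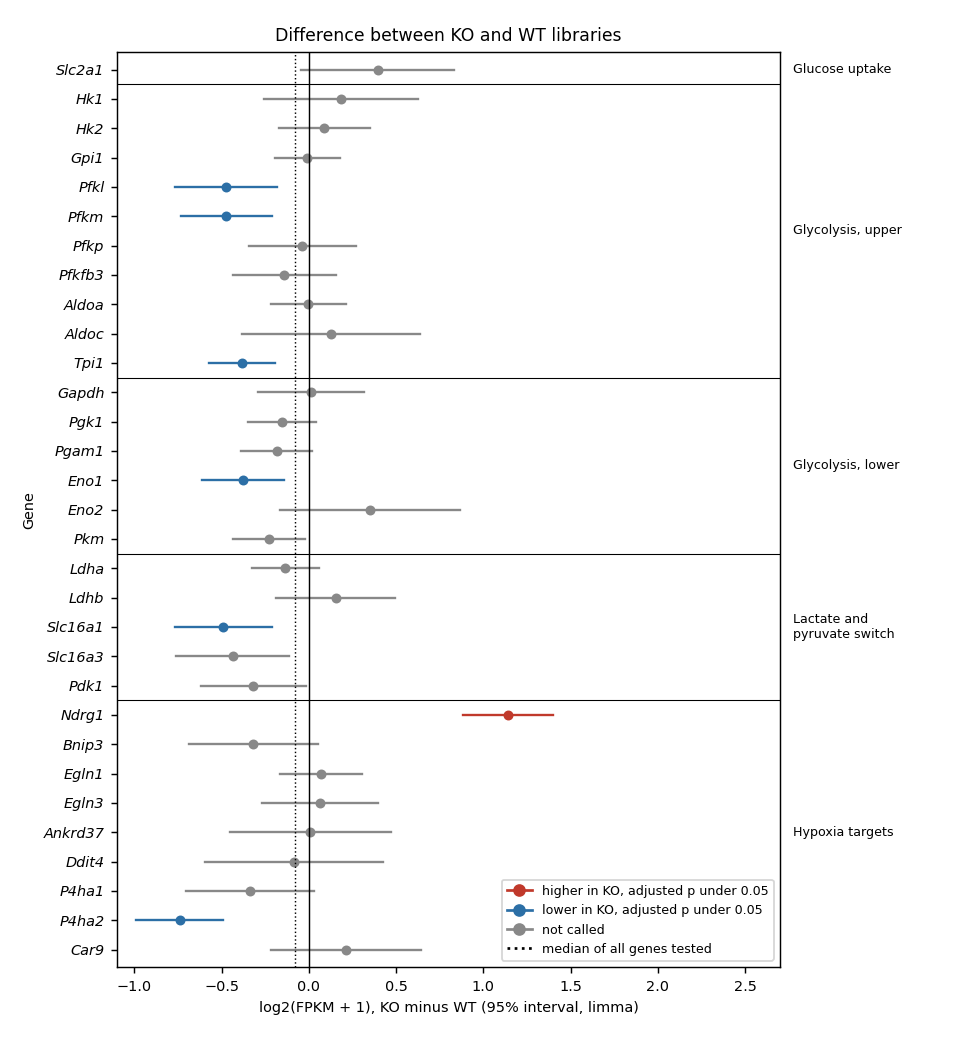
Difference in log2(FPKM + 1), KO-labelled minus WT libraries, for the 31 genes tested, with the 95% interval from limma, and a dotted line at the median of all genes tested. Ndrg1 lies to the right of 0, 6 genes called lower lie to the left, and the intervals of most others include 0.

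Gapdh, the dehydrogenase often used as a reference gene, had only 25.7, 33.7 and 28.1 FPKM in KO1 to KO3, against 26.0, 35.3, 26.3 and 28.1 FPKM in WT1 to WT4. The groups overlapped fully (log2 difference 0.01, 95% interval -0.29 to 0.32, limma adjusted p = 0.953). This level was below that of the enzymes before and after it in the pathway, and most of the FPKM summed over Gapdh and its copies lay in rows of the copies. In the GENCODE vM21 transcripts 78 other genes shared at least 200 bp at 95% identity or more with Gapdh, and values of 72 of them were used. Their summed FPKM was 535, 576 and 524 in KO1 to KO3, against 513, 505, 529 and 569 in WT1 to WT4, or 1830% of the mean of Gapdh itself in WT. Gapdh and its copies together summed to 561, 609 and 552 FPKM in KO1 to KO3, against 539, 540.0, 555 and 597 FPKM in WT1 to WT4, and these ranges overlapped. FPKM is divided by length within each row, so a sum over rows of unlike length is not the level of 1 gene. The level of Gapdh is therefore uncertain here.

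Near-identical copies were found for 10 of the 32 genes, and for 5 of them a copy had a mean of at least 1 FPKM. Eno1 has Eno1b and Gm4735, whose sum was 19.4 to 21.1 FPKM in KO-labelled and 27.1 to 34.0 FPKM in WT libraries, and these ranges did not overlap. With them added, Eno1 reached 158, 177 and 181 FPKM in KO1 to KO3, against 216, 249, 229 and 216 FPKM in WT1 to WT4, still without overlap. The copy of Pgam1, Pgam1-ps2, had 11.2 to 12.6 FPKM in KO-labelled and 13.5 to 18.4 FPKM in WT libraries. Copies of Pgk1 summed to 4.25 to 8.19 FPKM in KO-labelled and 5.79 to 10.5 FPKM in WT libraries, and that of Bnip3 had 1.68 to 2.44 FPKM in KO-labelled and 0.907 to 2.52 FPKM in WT libraries. How reads were shared between a gene and its copies is not given in the sources used here. Tpi1 and Pkm each have 1 such copy, not analysed here, and Pfkl, Pfkm, Slc16a1, Ndrg1 and P4ha2 have none. A gene on the opposite strand with a mean of at least 1 FPKM overlaps 6 of the 32, namely Slc2a1, Pfkm, Pfkp, Tpi1, Gapdh and Ankrd37. Overlap was taken between whole gene spans, introns included, and shared exons were not looked for. Only reads from a stretch that both genes share would need the strand to be told apart.

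**Figure D3:**
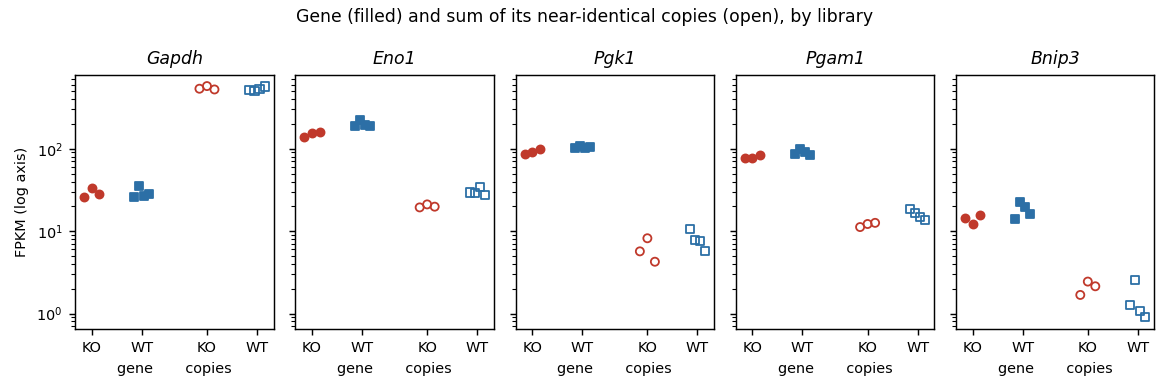
FPKM on a log axis of 5 genes (filled) and of the sum of their near-identical copies (open) in each of 3 KO-labelled (circles) and 4 WT libraries (squares). The copies of Gapdh sum to 505 to 576 FPKM over the libraries, far above the gene's own row, whereas the copies of the other 4 genes lie below their gene.

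Lactate dehydrogenase is built from the A chain (Ldha), which favours lactate, and the B chain (Ldhb), which favours pyruvate. Ldha had 219, 212 and 217 FPKM in KO1 to KO3, against 232, 238, 239 and 242 FPKM in WT1 to WT4. No KO-labelled library reached a WT value, but the gap was small and was not called (limma adjusted p = 0.255, with a log2 difference of -0.14 and a 95% interval of -0.33 to 0.06). Ldhb, the gene of highest mean in the lactate group, had 276, 248 and 284 FPKM in KO1 to KO3, against 312, 200, 244 and 223 FPKM in WT1 to WT4. WT libraries held both the highest and the lowest value (log2 difference 0.15, 95% interval -0.19 to 0.50, limma adjusted p = 0.468). On the per-length FPKM scale the chains were present at levels within 1.34-fold of each other, with an Ldhb/Ldha ratio of 1.17 to 1.31 in KO-labelled and 0.840 to 1.34 in WT libraries.

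Among the 5 genes that handle pyruvate and lactate, 1 was called lower, against 16.7% of all genes tested, and 4 had every KO-labelled library below every WT library, against 24.8% of all genes, with Ldhb the exception. Counts over so few genes show nothing particular to them. Slc16a1 (chromosome 3, 104638668 to 104658462, plus strand), which encodes MCT1, had 17.9, 24.2 and 23.0 FPKM in KO1 to KO3, against 28.7, 35.02, 30.6 and 28.7 FPKM in WT1 to WT4. The groups did not overlap, and KO1 was the lowest (log2 difference -0.49, SE 0.12, limma adjusted p = 0.0232). The call was lost without WT2, WT3 or KO1, with a log2 difference between -0.63 and -0.36 over all alternatives. Slc16a3, the lactate exporter MCT4, had 6.44, 5.71 and 7.92 FPKM in KO1 to KO3, against 8.19, 11.7, 9.21 and 8.58 FPKM in WT1 to WT4. It missed the threshold, though every KO-labelled value was below every WT value (log2 difference -0.44, SE 0.14, limma adjusted p = 0.0543), and it was called without WT1 or KO3. Pdk1, the kinase that shuts pyruvate dehydrogenase, averaged 3.3 ± 0.346 FPKM in KO-labelled and 4.39 ± 0.766 FPKM in WT libraries (limma adjusted p = 0.107).

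Ndrg1 (chromosome 15, 66929318 to 66969640, minus strand) had 10.7, 7.96 and 9.75 FPKM in KO1 to KO3, against 3.88, 3.89, 3.65 and 3.46 FPKM in WT1 to WT4. The lowest KO-labelled value was about 4 FPKM above the highest WT value, and the WT values lay close together (limma adjusted p = 0.00234, log2 difference 1.14 with a 95% interval of 0.88 to 1.40). It was called under all 16 alternatives, with a log2 difference between 1.01 and 1.31. In the same libraries the summed surface epithelium markers were 64.1 to 141 FPKM in KO-labelled and 30.3 to 39.3 FPKM in WT libraries. KO2 was the lowest KO-labelled library for Ndrg1, for those markers and for the sums of the other 6 lists of other cell types, whose part in this result was not tested.

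P4ha2 and P4ha1 encode catalytic subunits of the enzyme that hydroxylates proline in collagen. P4ha2 (chromosome 11, 54100095 to 54131665, plus strand) had 5.04, 5.65 and 5.90 FPKM in KO1 to KO3, against 9.16, 11.6, 10.1 and 8.99 FPKM in WT1 to WT4. The groups were well apart (limma adjusted p = 0.00545, log2 difference -0.74 with a 95% interval of -0.99 to -0.49), and the gene was called under all 16 alternatives. P4ha1, the hypoxia target of highest mean, had 25.8, 43.8 and 37.4 FPKM in KO1 to KO3, against 39.6, 47.5, 45.4 and 45.2 FPKM in WT1 to WT4. KO2 lay among the WT values, and the gene was not called (log2 difference -0.34, SE 0.16, limma adjusted p = 0.153), but it was called without KO2. In the same libraries 4 of 10 stroma and theca markers were higher and 0 lower, and their part in this result was not tested.

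**Figure D4:**
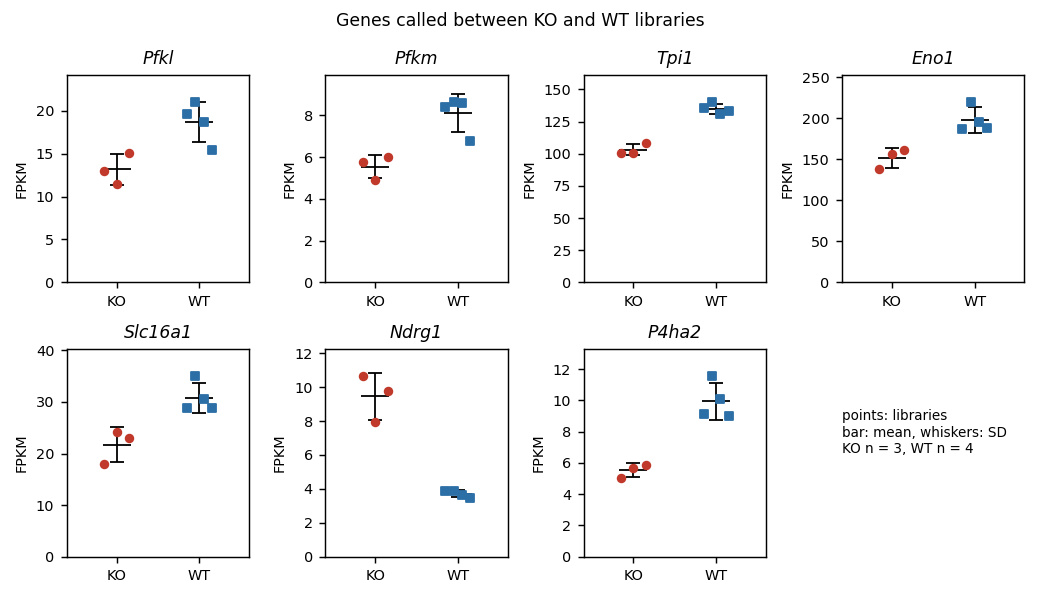
FPKM of the 7 called genes in each KO-labelled (circles, left, n = 3) and WT library (squares, right, n = 4), with the mean and SD, on axes that start at 0. For Ndrg1 all 3 KO-labelled libraries lie above 7 FPKM and all WT libraries below 4 FPKM, and in the other 6 genes each KO-labelled library lies below each WT library.

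The other 6 hypoxia targets were not called, and in each the groups overlapped. Egln1 and Egln3 encode prolyl hydroxylases that mark hypoxia-inducible factor and are themselves its targets. Egln3 averaged 20.5 ± 3.10 FPKM in KO-labelled and 19.6 ± 3.41 FPKM in WT libraries (limma adjusted p = 0.775), and Egln1 9.54 ± 0.903 FPKM in KO-labelled and 9.05 ± 0.809 FPKM in WT libraries (limma adjusted p = 0.649). Bnip3, a mitophagy receptor, averaged 14.1 ± 1.78 FPKM in KO-labelled and 18.1 ± 3.94 FPKM in WT libraries (limma adjusted p = 0.177). Ddit4, an inhibitor of mTORC1 signalling, ranged from 32.4 to 43.8 FPKM in KO-labelled and from 25.8 to 54.6 FPKM in WT libraries, so WT values lay on both sides of the KO-labelled ones. Car9, an extracellular carbonic anhydrase, was low at 3.35 ± 0.444 FPKM in KO-labelled and 2.83 ± 0.936 FPKM in WT libraries. Ankrd37 hardly passed the minimum level, with 1.07 ± 0.600 FPKM in KO-labelled and 1.01 ± 0.209 FPKM in WT libraries.

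Within a library the ratio of 2 related genes does not depend on how libraries are scaled. For the 10 pairs examined, an exact permutation test over the 35 splits (two-sided, smallest possible p 0.0286) was adjusted over the pairs. With this smallest p a single pair without overlap could not pass the adjustment, so that 0 passed says little. P4ha2/P4ha1 was 0.195, 0.129 and 0.158 in KO1 to KO3, against 0.231, 0.243, 0.222 and 0.199 in WT1 to WT4. It was the 1 pair without overlap (log2 difference -0.50, exact permutation p = 0.0286, adjusted p = 0.286). Pfkm/Pfkl was steady at 0.399 to 0.442 in KO-labelled and 0.412 to 0.460 in WT libraries, with overlap (log2 difference -0.04, exact permutation p = 0.514). Slc16a3/Slc16a1 differed by 0.01 on the log2 scale between the groups (exact permutation p = 0.914). Pfkp/Pfkl was 0.872, 1.51 and 1.03 in KO1 to KO3, against 0.696, 0.726, 0.816 and 0.995 in WT1 to WT4, and only KO1 lay within the WT range (log2 difference 0.47, exact permutation p = 0.114, adjusted p = 0.342). Eno2/Eno1 and Slc2a3/Slc2a1 had log2 differences of 0.97 and 0.77, also with overlap (exact permutation p = 0.114 and 0.143). The other 4 pairs, Hk2/Hk1, Aldoc/Aldoa, Ldhb/Ldha and Egln3/Egln1, differed by -0.14, 0.17, 0.29 and -0.01 on the log2 scale (exact permutation p = 0.914, 0.714, 0.171 and 0.971).

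**Figure D5:**
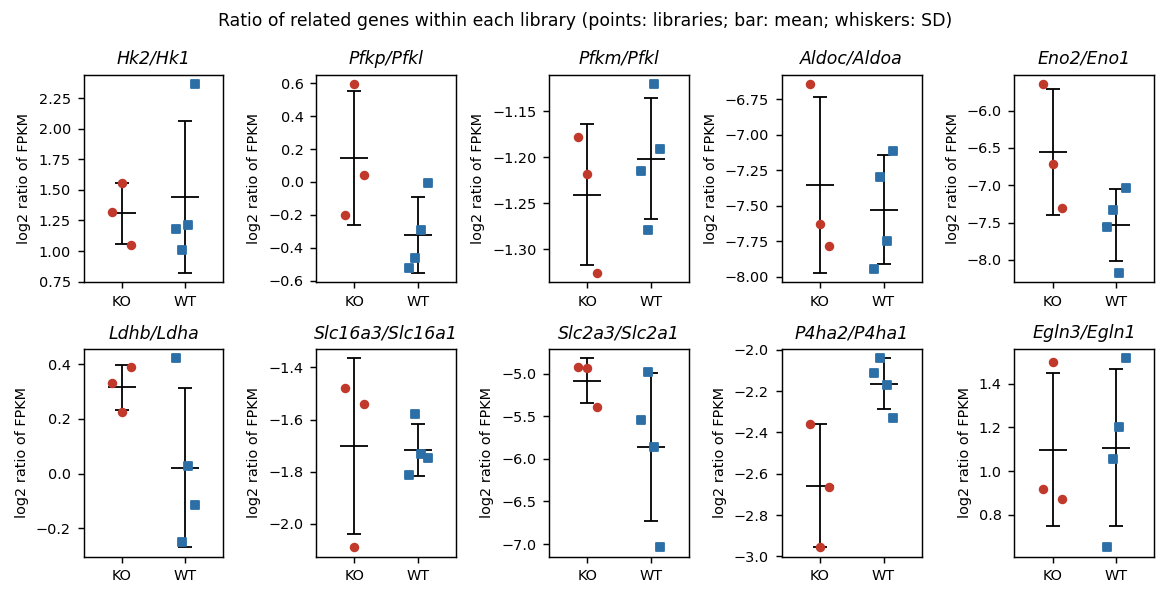
Log2 ratio of FPKM of 10 pairs of related genes in each KO-labelled (circles, left, n = 3) and WT library (squares, right, n = 4), with mean and SD. Each panel has its own axis. P4ha2/P4ha1 is the pair whose groups do not overlap, and in Hk2/Hk1 the library WT4 stands far above the other 3 WT libraries.

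Over all genes the share called lower rose with transcript length over 5 equal bins. The share called higher fell, from 11.7% in the shortest bin to 2.84% in the longest. Ndrg1 lay between 3665 and 5054 bp, where 6.36% of all genes were higher. In the shortest bin, up to 1569 bp, 6.39% of all genes were lower and 0 of 3 of the set, and from 1571 to 2635 bp 11.2% of all genes and 2 of 9 of the set. From 2636 to 3664 bp 17.1% of all genes were lower and 2 of 9 of the set, and between 3665 and 5054 bp 22.1% of all genes and 2 of 7 of the set. In the longest bin, from 5055 bp, 28.2% of all genes were lower and 0 of 3 of the set. After a correction for length 1 gene of the set was higher and 6 were lower (19.4% of those tested), against 1364 higher and 1841 lower (13.9%) of 13212 genes with a length.

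Other genes of the same pathways were counted beside the set. Over all genes tested 7.91% were higher and 16.7% lower, and counts over lists this short show nothing particular to them. Of 11 tested genes of glycolysis and glucose transport outside the set, 2 (18.2%) were lower and 0 higher. Adpgk, an ADP-dependent glucokinase, averaged 22.5 ± 2.99 FPKM in KO-labelled and 32.7 ± 2.85 FPKM in WT libraries (limma adjusted p = 0.0146), and Pfkfb2, a relative of Pfkfb3, 7.40 ± 1.07 FPKM in KO-labelled and 11.1 ± 2.18 FPKM in WT libraries (limma adjusted p = 0.0458). Of 17 other lactate and pyruvate genes 4 (23.5%) were higher and 1 (5.88%) lower. Pyruvate dehydrogenase feeds pyruvate into the citric acid cycle, and Pdp1, the phosphatase that switches it on, averaged 28.4 ± 2.35 FPKM in KO-labelled and 16.9 ± 2.90 FPKM in WT libraries (log2 difference 0.73, limma adjusted p = 0.00997). Its catalytic subunit gene Pdha1 averaged 17.9 ± 2.20 FPKM in KO-labelled and 13.4 ± 0.700 FPKM in WT libraries (limma adjusted p = 0.0276). Ldhd, a D-lactate dehydrogenase, was higher (log2 difference 0.38, limma adjusted p = 0.0410) and Pck2, mitochondrial phosphoenolpyruvate carboxykinase, was lower (-0.48, limma adjusted p = 0.0311).

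The pentose phosphate pathway and its neighbours had 2 of 10 genes lower and 0 higher. Prps2, which makes phosphoribosyl pyrophosphate, averaged 13.4 ± 0.554 FPKM in KO-labelled and 19.3 ± 0.355 FPKM in WT libraries (limma adjusted p = 0.00640), and transketolase, Tkt, 50.1 ± 1.88 FPKM in KO-labelled and 62.3 ± 4.95 FPKM in WT libraries (limma adjusted p = 0.0400). Glycogen genes had 5 of 16 (31.2%) lower and 1 (6.25%) higher. Pygb, a glycogen phosphorylase, averaged 21.2 ± 2.96 FPKM in KO-labelled and 32.2 ± 1.83 FPKM in WT libraries (limma adjusted p = 0.00880), and Phka1, a phosphorylase kinase subunit, 3.40 ± 0.555 FPKM in KO-labelled and 6.10 ± 0.174 FPKM in WT libraries (limma adjusted p = 0.00639). Of the phosphoglucomutase genes Pgm1 was higher and Pgm2 lower (log2 difference 0.47 and -0.48). Of 10 genes of the NADH shuttles 1 was higher and 2 lower. The higher gene was Got1, cytosolic aspartate aminotransferase, at 95.6 ± 4.84 FPKM in KO-labelled and 58.5 ± 6.89 FPKM in WT libraries (log2 difference 0.70, limma adjusted p = 0.00557). The aspartate-glutamate carrier Slc25a13 and the glycerol phosphate dehydrogenase Gpd2 were lower (log2 difference -0.34 and -0.37).

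Regulators of hypoxia-inducible factor had 1 of 13 genes higher and 1 lower (7.69% each), against 7.91% and 16.7% of all genes tested. Tceb1, elongin C of the ubiquitin ligase that takes up the hydroxylated factor, averaged 73.4 ± 5.52 FPKM in KO-labelled and 54.7 ± 5.91 FPKM in WT libraries (limma adjusted p = 0.0251). The coactivator gene Ep300 averaged 8.92 ± 1.67 FPKM in KO-labelled and 12.3 ± 1.27 FPKM in WT libraries (limma adjusted p = 0.0441). Hif1a itself ranged over 69.8 to 108 FPKM in KO-labelled and 66.0 to 97.2 FPKM in WT libraries, and its target Vegfa averaged 55.1 ± 13.5 FPKM in KO-labelled and 53.1 ± 6.51 FPKM in WT libraries, neither called (limma adjusted p = 0.958 and 0.894, both named after their values were seen). Of 37 hypoxia targets outside the set, 5 (13.5%) were higher and 6 (16.2%) lower, against 7.91% and 16.7% of all genes tested. Adm, the vasodilator adrenomedullin, averaged 2.60 ± 0.511 FPKM in KO-labelled and 0.960 ± 0.169 FPKM in WT libraries (limma adjusted p = 0.00698). Hmox1, heme oxygenase 1, had 26.1 to 40.02 FPKM in KO-labelled and 14.6 to 19.6 FPKM in WT libraries (limma adjusted p = 0.00820). Plin2, a lipid droplet coat protein, had 15.7 to 23.3 FPKM in KO-labelled and 10.3 to 14.5 FPKM in WT libraries (limma adjusted p = 0.0149). Car12, a carbonic anhydrase, was lower at 1.99 ± 0.343 FPKM in KO-labelled and 3.89 ± 0.460 FPKM in WT libraries (limma adjusted p = 0.00832). Calls in each direction were also found over all genes, and nothing particular to these targets is read from the counts.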

How the data were processed

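Expression was measured by poly(A) RNA sequencing of 3 KO-labelled and 4 WT libraries. The values deposited by the authors were taken as FPKM, inferred from the values because no header names the unit. The tools named per the submitters' processing notes, without roles, include HISAT2, HTSeq 0.12.4 and Trimmomatic, and the build is mm10. The design had allowed for counts. At the best step, 6.37% to 8.27% of low values lay within 0.02 of a whole fragment, against 4% for evenly spread values, so no counts were recovered and no count test was run.

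KO minus WT was fitted on log2(FPKM + 1) by limma (version 3.58.1, R version 4.3.3), letting the variance follow the mean, over genes whose mean reached 1 FPKM, with Benjamini-Hochberg adjustment over all of them and a threshold of 0.05. This scale understates the change of low genes. The fit was tested on simulated data. Coordinates, transcript lengths and copies came from GENCODE vM21. Values per library were given for each called gene and the gene of highest mean in each role. In the 7 pathway lists up to 4 called genes were named by smallest p, and 8 marker lists were counted. Members and lists were chosen with earlier results of these data known. Alternatives were pseudocount, filters, scaling, length, replicate block and leaving out each library.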

Additional observations from a re-analysis of the deposited data

Results flagged for a closer look

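Among 41 levels and ratios in the 4 WT libraries, 3 had 1 library far from the other 3, where chance alone marks about 1 in 20. Pfkm in WT4 had 6.77 FPKM, the lowest WT value, and Pfkp in WT1 had 13.6 FPKM, also the lowest. The Hk2/Hk1 ratio was 5.16 in WT4, against 2.01 to 2.32 in the other WT libraries and 2.07 to 2.94 in KO-labelled libraries, listed here for its WT spread. WT4 is the library that bears the treatment label of the KO group.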

How the results depend on the processing

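Under all 16 alternatives to the fit 1 gene of the set was higher, Ndrg1 each time, and P4ha2 and Tpi1 stayed lower. No gene called in the set changed direction. The number lower was 6 as reported, 2 with no filter on low values, 12 when FPKM sums were made equal (adding Pkm, Slc16a3, Pdk1, Pgk1, Pgam1 and Ldha) and 2 to 6 when 1 library was left out. It was 2 without WT2, WT3 or KO1. The median log2 difference of the set was -0.00037 with median-of-ratios and -0.019 with upper-quartile scaling. It was -0.23 with an equal sum of FPKM, -0.16 with that sum taken after dropping the top 20 genes by mean, and -0.16 with the length correction. It was -0.15 to -0.025 when 1 library was left out. The median of all genes was -0.041 with the length correction, further from that of the set than as reported. Without WT1 the set stood at -0.15 and all genes at -0.075, and without WT2 at -0.025 and -0.079. The equal sum moved the median of all genes to -0.21, so the further calls it gave are relative to that shift. Under the equal sum 38.7% of the set was lower, against 28.5% of all genes, and without WT2 6.45% against 8.59%.

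Over all genes 3410 were called, of which 32.1% were higher. The count was 1865 with no filter, 2022 without WT2, 1552 without WT3 and 1293 without KO1. The split was 1542 higher and 1617 lower with median-of-ratios scaling, 1429 and 1792 with upper-quartile scaling, 847 and 3946 under equal FPKM sums, and 1364 and 1841 with the length correction.

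Of the 10 ratios 1 had no overlap, 1 to 3 when 1 library was left out and 0 with a pseudocount of 1. In 4 ratios the 3 same-numbered pairs all moved one way. Deviations of same-numbered libraries had correlations of 0.193, -0.11 and 0.0708 for numbers 1 to 3, against -0.167 to 0.261 for the other pairs. With so few libraries these values cannot decide whether the numbers pair them. With the replicate block 1 gene of the set was higher, 6 (19.4%) were lower, and the median was -0.079. Over all genes 12.6% were lower with the block, and the median was -0.092. Depth is unknown, and genes near 1 FPKM are the least certain.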
